A study of Homo sapiens with 4 samples.

Results

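The 9 genes described here guide the traffic of leukocytes: the chemokine receptors CXCR4, CXCR3, CCR7 and CCR6, the sphingosine 1-phosphate (S1P) receptor S1PR1, the chemokine CXCL8, the selectin ligand SELPLG, and PECAM1 and CD99, which act at endothelial junctions. They were taken by symbol, through GENCODE release 44, from a gene table of 65217 human genes, and each symbol matched 1 gene of the table. The libraries come from SEM cells, an established human B-cell precursor leukaemia line with the t(4;11) fusion KMT2A-AFF1, grown in mice of 6 to 10 weeks of a strain and immune status that the sources used here do not give. Cells from brain, where the protocol names the leptomeninges, gave 2 libraries, and cells from spleen gave 2. Each library pooled the RNA of 5 mice, leukaemic cells had been enriched on a Ficoll gradient, and the 2 replicates of a site are 2 occasions of the experiment. All 4 libraries thus carry the same fusion and the same xenograft host, and the site is the labelled difference.

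Leukocytes leave the blood in steps. Selectins on the vessel wall catch glycosylated ligands such as the product of SELPLG, chemokines then act through receptors coupled to inhibitory G proteins to switch integrins on, and PECAM1 and CD99 take part in the passage between endothelial cells. S1P draws lymphocytes out of tissues along a gradient, mostly through S1PR1, while CXCR4 holds haematopoietic cells where its ligand CXCL12 is made, as in marrow and meninges. CCR7 serves entry into lymph nodes, and in T-cell leukaemia of mice it has been tied to entry into the central nervous system.

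Promoter windows are shown for the gene whose difference passed the test, CXCL8, and for the member with the highest level per length, CXCR4, whose transcripts begin at separate starts. Each runs from 250 bases before to 50 bases after an annotated start, from RefSeq on GRCh38.p14, 5′ to 3′ on the gene's strand. Capitals mark matches on either strand. The motif of AP-1 was searched as TGANTCA. The motif of the NF-kB family was searched as GGNNTTTCC. The TATA box was searched as TATAAA. The GC box was searched as GGGCGG. The CXCL8 window is chr4:73740319-73740618 on the plus strand, and the CXCR4 windows are chr2:136118100-136118399 and chr2:136116186-136116485 on the minus strand.
CXCL8: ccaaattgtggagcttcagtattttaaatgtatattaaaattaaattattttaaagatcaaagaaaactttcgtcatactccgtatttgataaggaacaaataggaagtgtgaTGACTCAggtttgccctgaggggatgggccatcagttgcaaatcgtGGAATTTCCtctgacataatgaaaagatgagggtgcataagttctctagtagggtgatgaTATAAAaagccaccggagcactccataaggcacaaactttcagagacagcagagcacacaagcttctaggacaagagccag
CXCR4 upstream start: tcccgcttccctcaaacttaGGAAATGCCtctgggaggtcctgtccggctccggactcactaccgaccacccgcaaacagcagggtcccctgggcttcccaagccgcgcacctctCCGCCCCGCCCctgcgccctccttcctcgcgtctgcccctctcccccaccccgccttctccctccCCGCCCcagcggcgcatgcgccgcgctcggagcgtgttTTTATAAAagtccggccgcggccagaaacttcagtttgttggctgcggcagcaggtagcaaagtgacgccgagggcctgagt
CXCR4 downstream start: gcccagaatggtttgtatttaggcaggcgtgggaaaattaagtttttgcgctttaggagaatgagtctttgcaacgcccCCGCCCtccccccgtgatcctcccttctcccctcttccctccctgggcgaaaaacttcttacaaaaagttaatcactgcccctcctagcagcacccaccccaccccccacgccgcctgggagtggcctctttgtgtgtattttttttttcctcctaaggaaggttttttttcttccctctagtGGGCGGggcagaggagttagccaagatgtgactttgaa

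With the start counted as 0, the CXCL8 window held the AP-1 letters at -137 to -131, the NF-kB letters at -91 to -83 and TATAAA at -31 to -26. Over 35116 promoter windows of 300 bases, the AP-1 letters were found in 7.71%, the NF-kB letters in 6.26% and TATAAA in 11.5%. The upstream CXCR4 window held GGGCGG (45.0% of windows) on the other strand at -135 to -130, -130 to -125 and -70 to -65, where the first and second overlap by 1 base. TATAAA lay at -30 to -25 on the transcribed strand and, overlapping it, at -32 to -27 on the other strand, and the NF-kB letters lay at -230 to -222 on the other strand. The downstream CXCR4 window held GGGCGG on the other strand at -171 to -166 and on the gene's strand at 12 to 17, and no letters of the other motifs. These matches are descriptions of the reference sequence and do not show that a factor binds.

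The gene counts summed to 36913437 and 33055465 in the brain libraries and to 32972842 and 26266136 in the spleen libraries. A count of 0, which allows up to 3 counts, therefore allows between 0.0811 and 0.119 CPM (counts per 1e6 of the library size scaled by its TMM factor, which lay between 0.963 and 1.03). The 8 B-cell precursor markers PAX5, EBF1, DNTT, VPREB1, IGLL1, CD79A, CD79B and CD22 were present in every library, with summed levels of 2109 and 2018 CPM in brain and 1475 and 1615 CPM in spleen. Of these 8, CD22 rose in brain, with 140 and 132 CPM, against 39.8 and 57.4 CPM in spleen (edgeR, adjusted p = 0.0147), and none fell. IGLL1 had 78.9 and 105 CPM in brain and 8.86 and 21.5 CPM in spleen (adjusted p = 0.119). CD79B had 89.3 and 91.5 CPM in brain and 26.5 and 46.0 CPM in spleen (adjusted p = 0.0731). VPREB1 lay the other way, with 175 and 161 CPM in brain and 186 and 235 CPM in spleen (edgeR, adjusted p = 0.284). DNTT overlapped, with 213 and 252 CPM in brain and 219 and 246 CPM in spleen. The part of these marker levels in the results below was not tested. Spleen replicate 2 stood apart by GC content. Over the 20% of genes with the lowest GC content its median deviation from the mean of the 4 libraries was -0.39 on the log2 scale. The others had 0.14 to 0.15. By transcript length the sites parted. Over the 20% of genes with the longest transcripts the deviations were 0.136 and 0.143 in brain and -0.034 and -0.201 in spleen. Over the 20% with the shortest they were -0.0726 and -0.0912 in brain and 0.0846 and 0.0956 in spleen. Mouse transcripts took 2.24% and 1.45% of the estimated counts in brain and 4.31% and 6.32% in spleen. In such bulk samples a smaller number of cells of a type and less RNA per cell cannot be told apart.

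The question was which homing genes differed between leukaemic cells of the 2 sites. By edgeR's quasi-likelihood test without a block, CXCL8 alone rose in brain, and none of the 7 members tested fell. The chemokine receptors CCR7 and CCR6 and the adhesion molecule PECAM1 had higher levels in brain, and CD99 and SELPLG had lower ones. In this fit their adjusted p lay between 0.0662 and 0.340. CXCR4, the member with the highest level per length, had a log2 fold change of 0.33 (adjusted p = 0.249). With the replicate number as a block, CCR7 and PECAM1 were called higher too, and CD99 was called lower. That block called 7.48% of all tested genes higher and 3.37% lower. The SE of these 3 genes was larger with the block: 0.424 against 0.341 for CCR7, 0.222 against 0.208 for PECAM1 and 0.197 against 0.154 for CD99. CXCR3 and S1PR1 had too few counts to be tested.

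Of the 7 members that passed the filter on low counts (CXCR3 and S1PR1 did not), 1 was called higher and 0 lower at an adjusted p under 0.05 (Benjamini-Hochberg over 17075 genes), where 1.63% of all tested genes were called higher and 0.387% lower. At an unadjusted p under 0.05 there were 5 of the 7, against 20.6% of all genes. The brain and spleen libraries did not overlap for any of the 7, which held for 57.0% of all genes. CCR6 and CXCL8 passed the filter through the brain libraries alone, as did 844 of the 17075 genes, so the 7 are no unselected sample of the members. With the replicate number as a block 3 members were called higher (CXCL8, CCR7 and PECAM1) and 1 lower (CD99), where 7.48% of all genes were called higher and 3.37% lower. The share of all genes called depended on which library was left out: 1.65% higher and 0.596% lower without brain replicate 1, 2.45% and 0.640% without brain replicate 2, 18.9% and 19.0% without spleen replicate 1, and 9.64% and 7.63% without spleen replicate 2. A call made with a spleen library left out therefore stands against a high background. Corrected for GC content and transcript length, 2.35% of genes were called higher and 1.10% lower, and with the block as well 5.74% and 5.39%. DESeq2 called 3.45% higher and 2.55% lower, the fit without a filter 3.67% and 2.47%, the filter of at least 1 CPM in 2 libraries 1.31% and 0.218%, and gene sums of the transcript files 1.68% and 0.333%.

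The exact permutation test of 2 libraries against 2 cannot give a p under 0.333, so the tests rest on the spread shared across genes.

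**Figure D1:**
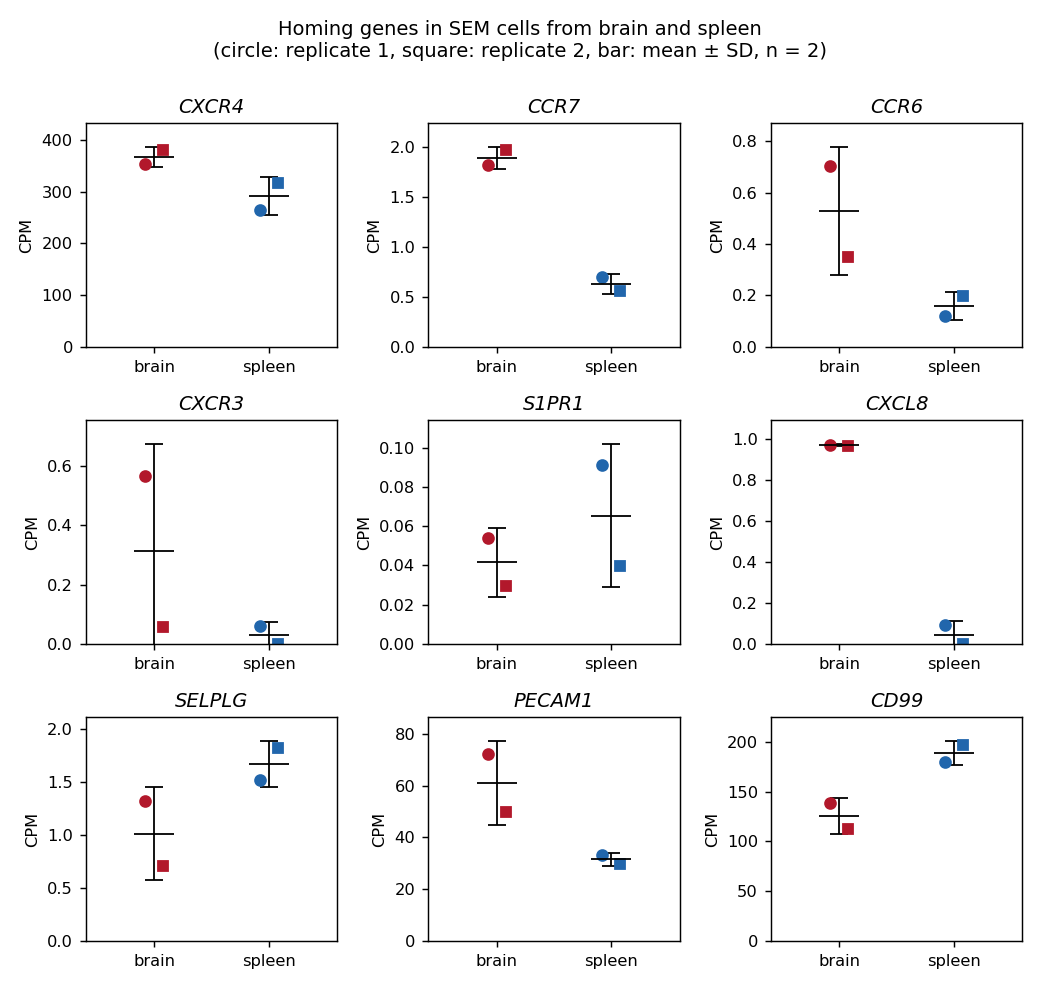
Level of each homing gene in CPM (vertical axis, from 0, scaled per gene) in the 2 brain libraries (left, red) and the 2 spleen libraries (right, blue), with circles for replicate 1, squares for replicate 2 and bars for mean ± SD. CXCL8 lies near 0.97 CPM in both brain libraries and at or under 0.0910 CPM in spleen, and CXCR3 is set by 1 brain library.

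CXCL8 encodes interleukin-8, a chemokine that draws neutrophils through the receptors CXCR1 and CXCR2, and mice have no gene that corresponds to it directly. The gene (ENSG00000169429) lies on chromosome 4, 73740519 to 73743716 (GRCh38). It had 36 and 33 counts in the brain libraries and 3 and 0 counts in the spleen libraries. These are 0.973 and 0.966 CPM in brain and 0.0910 and 0 CPM in spleen, so both brain libraries were near 1 CPM and both spleen libraries at or under the limit of a count of 0. The log2 fold change was 4.15 ± 0.73 (SE, n = 2 libraries per site, edgeR, adjusted p = 0.0366). The ratio of CPM was 18.8, with an exact 95% interval of 6.18 to 93.5 that covers counting error only.

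The size of the CXCL8 difference rests on these few spleen counts. CXCL8 passed the filter on low counts through the brain libraries alone, where its level was high. Without spleen replicate 2 the log2 fold change was 3.38. It was 4.15 without brain replicate 1 and 4.17 without brain replicate 2. Without spleen replicate 1 the remaining spleen library had 0 counts, and with that library set at its floor of 3 counts the level in brain was at least 8.17-fold higher. The gene was not tested under a filter that asks for at least 1 CPM in 2 libraries. Neutrophil markers, of cells that release this chemokine, summed to 2.16 and 2.49 CPM in brain and to 4.70 and 5.62 CPM in spleen, nearly all from MPO. Of these 6 markers ELANE, S100A8, S100A9 and FCGR3B were at 0 in every library. These are levels of human genes, while neutrophils of the host are mouse cells and would not appear in them. The part of neutrophils in the CXCL8 difference was not tested.

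Fibroblast and meningeal markers summed to 2.19 and 1.64 CPM in brain and to 0.576 and 0.990 CPM in spleen, mostly from COL1A1. Of these 6 markers LUM was at 0, COL3A1, DCN and PDGFRA were under 0.1 CPM in every library, and 0 were called. These too are levels of human genes, while such cells of the host are mouse cells. The part of fibroblasts and meningeal cells in the CXCL8 difference was not tested. Most CXCL8 counts in brain belonged to the transcript CXCL8-201, with 32.7 and 31.3 estimated counts, which begins at the annotated start of the window printed above. In spleen replicate 1 CXCL8-201 had 1.54 estimated counts and the shorter CXCL8-202 had 1.46.

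The genes whose centred log2 CPM over the 4 libraries lay nearest to that of CXCL8 were SCD, MIR210HG and ENO2, among 10477 genes with a mean of at least 5 CPM. Their root mean square differences from CXCL8 were 0.41, 0.41 and 0.48 on the log2 scale. SCD, a fatty acid desaturase, had 140 and 153 CPM in brain and 21.2 and 16.6 CPM in spleen. MIR210HG, the host transcript of a microRNA, had 9.71 and 9.40 CPM in brain and 1.18 and 0.990 CPM in spleen. ENO2, an enolase, had 9.68 and 11.2 CPM in brain and 0.637 and 0.356 CPM in spleen. These log2 CPM carry a prior count of 2, which shrinks the contrast of genes with few counts, CXCL8 among them, so the order depends on it. Likeness over 4 libraries describes these libraries only.

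CXCR4, the receptor of CXCL12, retains B-cell precursors in marrow. The gene (ENSG00000121966) lies on chromosome 2, 136114349 to 136119177. It had 354 and 380 CPM in brain and 265 and 318 CPM in spleen, so that the sites did not overlap but the gap from the lower brain library to the higher spleen library was small. The log2 fold change was 0.33 ± 0.15 (SE, edgeR, adjusted p = 0.249; with the replicate block 0.34, adjusted p = 0.296). Without spleen replicate 2, the library that stood apart, CXCR4 was called higher at 0.48 (edgeR, adjusted p = 0.000865), where the lone spleen library is assumed to vary like the brain libraries, and without spleen replicate 1 it was 0.16 (adjusted p = 0.197). CXCR4 was not called without brain replicate 1 (0.38, adjusted p = 0.755) or brain replicate 2 (0.28, adjusted p = 0.856).

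Most CXCR4 counts belonged to 1 start in every library. CXCR4-201, which begins at the annotated upstream start, took 97.4% and 95.6% of the estimated counts in brain and 96.9% and 97.3% in spleen. CXCR4-202, which begins 8 bases from the annotated downstream start, took 2.06% and 3.23% in brain, against 2.49% and 2.31% in spleen. A further transcript, CXCR4-203, took between 0.366% and 1.20%.

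CCR7 binds CCL19 and CCL21 and guides lymphocytes to lymph nodes (ENSG00000126353, chromosome 17, 40553769 to 40565472). It had 67 and 67 counts in brain and 23 and 14 counts in spleen, or 1.81 and 1.96 CPM in brain and 0.698 and 0.554 CPM in spleen. The 2 libraries of each site lay close together and the sites were well apart. Its log2 fold change of 1.58 ± 0.34 (SE) did not pass (edgeR, adjusted p = 0.0662). It passed with the replicate block (1.58, adjusted p = 0.00425) and, without the block, after correction for GC content and transcript length (1.65, adjusted p = 0.0494). With 1 spleen library left out it passed too, at 1.71 without replicate 1 (adjusted p = 0.00548) and at 1.44 without replicate 2 (adjusted p = 0.0234). CCR7 was not called with either brain library left out, at 1.63 without replicate 1 (adjusted p = 0.0928) and at 1.52 without replicate 2 (adjusted p = 0.131).

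CCR6, the receptor of CCL20, is known from mature B cells and from T-helper cells that make interleukin-17 (ENSG00000112486, chromosome 6, 167111807 to 167139141). It had 26 and 12 counts in brain and 4 and 5 counts in spleen. The brain libraries differed from each other by more than the gap to spleen. CCR6 had a log2 fold change of 1.74 ± 0.61 (SE, edgeR, adjusted p = 0.168), and the ratio of CPM was 3.46 (exact 95% interval 1.64 to 8.13, counting error only). Without brain replicate 1 the log2 fold change was 1.14 and without brain replicate 2 it was 2.14.

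CXCR3, a receptor of chemokines that interferon-gamma induces (ENSG00000186810, chromosome X, 71615916 to 71618511), had 21 and 2 counts in brain and 2 and 0 counts in spleen. The excess came from brain replicate 1 alone, and the sites overlapped. The ratio of CPM was 9.41 (exact 95% interval 2.33 to 82.4, counting error only) and 1.70 without brain replicate 1. The gene did not reach the filter with all 4 libraries. In fits that did test it, CXCR3 was called higher without a filter (log2 fold change 3.09, edgeR, adjusted p = 0.0218) and with brain replicate 2 left out (3.92, adjusted p = 0.0288), where brain replicate 1 is the lone brain library. It was not called without spleen replicate 1 (adjusted p = 0.0955) or spleen replicate 2 (adjusted p = 0.329).

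S1PR1, the receptor by which lymphocytes leave tissues toward blood and lymph (ENSG00000170989, chromosome 1, 101236865 to 101243713), had 2 and 1 counts in brain and 3 and 1 counts in spleen. Every library lay at or under the 3 counts that a count of 0 allows. The ratio of CPM was 0.614, with an exact 95% interval of 0.0899 to 3.63, so a difference between the sites was not detectable at this depth. These counts equal the summed estimated counts of the coding transcripts, without a short transcript that GENCODE also assigns to the gene. That transcript, S1PR1-204, has no defined coding sequence and had 2.05 and 8 estimated counts in brain and 3 and 1 in spleen, and with it the ratio was 1.33.

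SELPLG encodes P-selectin glycoprotein ligand 1, the main leukocyte ligand of P-selectin (ENSG00000110876, chromosome 12, 108621895 to 108633894). It had 49 and 24 counts in brain and 50 and 46 counts in spleen, or 1.32 and 0.703 CPM in brain and 1.52 and 1.82 CPM in spleen. Brain replicate 2 was the low library, and brain replicate 1 lay near the spleen libraries. The log2 fold change of -0.71 ± 0.39 (SE) did not pass (edgeR, adjusted p = 0.340), and it ranged from -1.24 without brain replicate 1 to -0.33 without brain replicate 2.

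PECAM1 (CD31) is an adhesion molecule of endothelium, platelets and leukocytes that binds itself across cells (ENSG00000261371, chromosome 17, 64319415 to 64413776). It had 72.4 and 49.7 CPM in brain and 33.4 and 29.9 CPM in spleen. Both brain libraries were above both spleen libraries, and the spread was wider in brain. Its log2 fold change of 0.95 ± 0.21 (SE) did not pass (edgeR, adjusted p = 0.0672) and passed with the replicate block (0.93, adjusted p = 0.000913). With a spleen library left out it was not called (adjusted p = 0.231 without replicate 1 and 0.330 without replicate 2). It was 1.20 without brain replicate 2 (adjusted p = 0.0135), 0.65 without brain replicate 1 (adjusted p = 0.534) and 0.71 after correction for GC content and transcript length (adjusted p = 0.086).

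Endothelial markers summed to 38.5 and 40.3 CPM in brain and to 30.1 and 43.3 CPM in spleen, mostly from EGFL7. Of these 8 markers KDR and TEK were under 0.1 CPM in every library, CDH5 had 0.622 and 0.761 CPM in brain and 0.364 and 2.77 CPM in spleen, and 0 were called. Of 5 platelet markers PF4 and PPBP were at 0 in every library, and the list summed to 2.35 and 1.73 CPM in brain and to 2.43 and 1.46 CPM in spleen. Within that list ITGA2B had 0.568 and 0.556 CPM in brain and 0.243 and 0.158 CPM in spleen. GP9 lay the other way, with 1.32 and 0.556 CPM in brain and 1.70 and 1.11 CPM in spleen. GP1BA overlapped, with 0.460 and 0.615 CPM in brain and 0.485 and 0.198 CPM in spleen. These are levels of human genes, while endothelial cells and platelets of the host are mouse cells. The part of endothelial cells and platelets in the PECAM1 difference was not tested.

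Most PECAM1 counts belonged to the long transcript PECAM1-203, with 90.8% and 90.3% of the estimated counts in brain and 93.9% and 98.8% in spleen. Its estimated counts were 2432 and 1531 in brain, against 1034 and 746 in spleen. The short PECAM1-207, without a defined coding sequence, had 42.7 and 25.9 estimated counts in brain and 1.48 and 0 in spleen. PECAM1-204 had 107 and 70.8 in brain and 32.4 and 0 in spleen. Because TPM divides by length, these short transcripts weigh heavily there: the gene summed to 31.6 and 23.7 TPM in brain and to 10.8 and 5.83 TPM in spleen, of which PECAM1-203 gave 13.0 and 9.29 TPM in brain and 5.82 and 4.86 TPM in spleen.

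CD99 encodes a small glycoprotein at the border of endothelial cells and on leukocytes, and it is used as a marker of lymphoblasts (ENSG00000002586, chromosome X, 2691187 to 2741309, in the region shared with chromosome Y and counted once). It had 138 and 112 CPM in brain and 180 and 197 CPM in spleen. Both brain libraries were below both spleen libraries. CD99 had a log2 fold change of -0.59 ± 0.15 (SE, edgeR, adjusted p = 0.0987). With the replicate block CD99 fell in brain (-0.60, adjusted p = 0.0284), and after correction for GC content and transcript length the value was -0.40 (adjusted p = 0.108).

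CD99 was also called lower with either spleen library left out, at -0.70 without replicate 1 (adjusted p = 0.000202) and at -0.51 without replicate 2 (adjusted p = 0.0075). It was not called with either brain library left out, at -0.75 without replicate 1 (adjusted p = 0.327) and at -0.44 without replicate 2 (adjusted p = 0.729). The pseudogene CD99P1, a near copy, had 55 and 61 counts in brain and 32 and 28 in spleen, few beside the 5108 and 3837 counts of CD99 in brain and the 5934 and 4974 in spleen. CD99-205 took 72.1% and 73.4% of the estimated counts in brain and 73.8% and 75.6% in spleen, and the next most used transcript took 24.2% and 20.8% in brain and 21.4% and 19.3% in spleen.

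**Figure D2:**
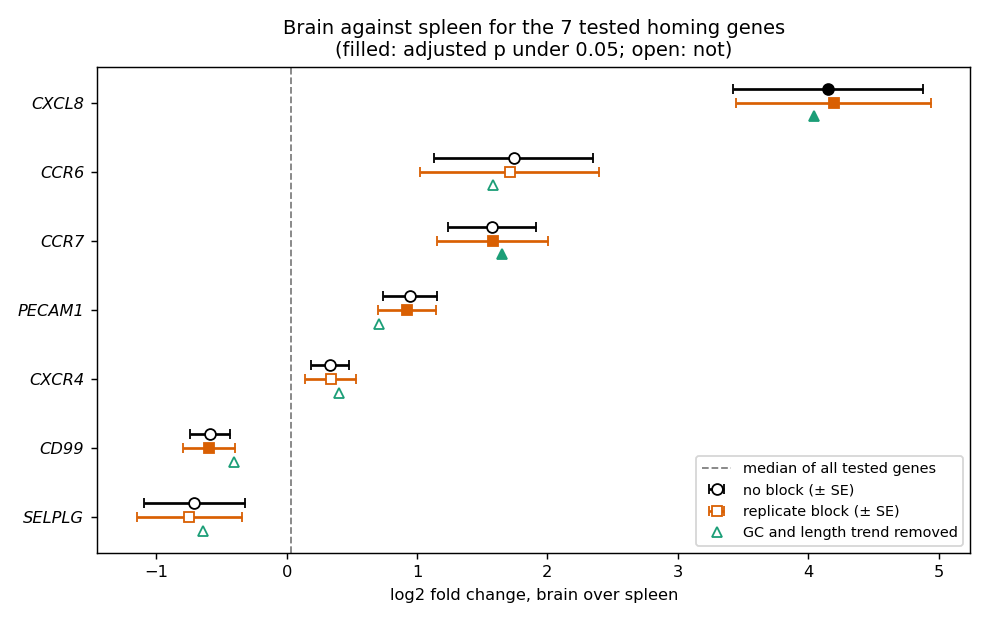
Log2 fold change of brain over spleen (horizontal axis) for the 7 tested homing genes without a block (circles, ± SE), with the replicate block (squares, ± SE) and after correction for GC content and transcript length (triangles), with filled symbols at an adjusted p under 0.05 and a dashed line at the median of all tested genes. CXCL8 is filled in all 3 fits, CCR7 is filled with the block and after the correction, and PECAM1 and CD99 are filled with the block.

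**Figure D3:**
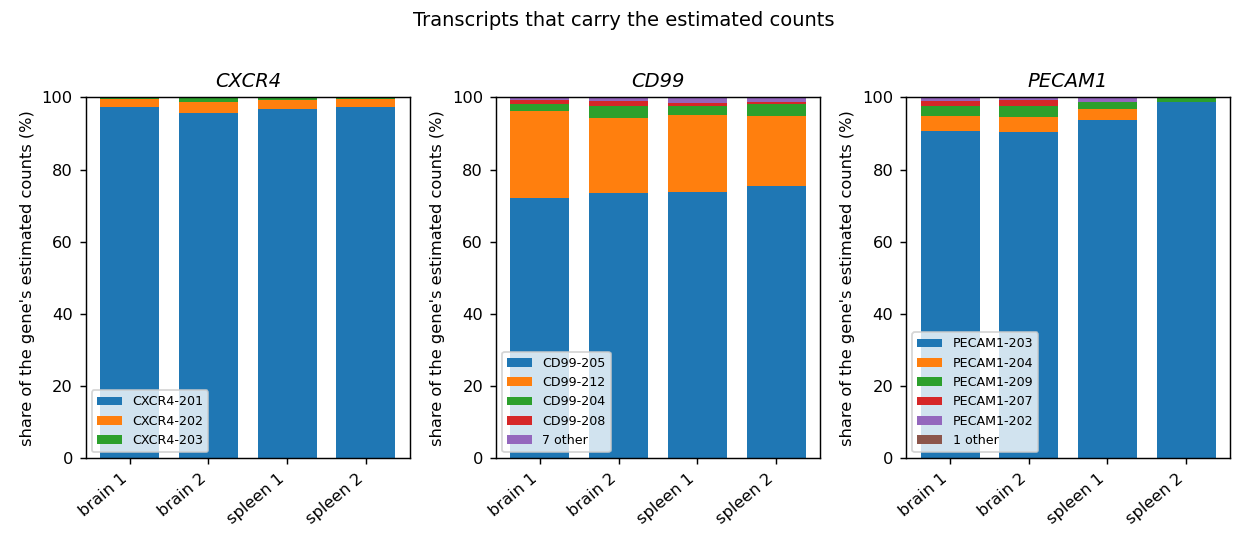
Share of a gene's estimated counts (vertical axis, percent) taken by each transcript of CXCR4, CD99 and PECAM1 in the brain and spleen libraries. CXCR4-201 takes at least 95.6% in every library, and PECAM1-203 takes a larger share in the spleen libraries, 93.9% and 98.8%, than in the brain libraries, 90.8% and 90.3%.

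Levels can be set side by side between genes only per length. In brain the order was CXCR4 (326 ± 29.1 TPM, SD, n = 2), CD99 (167 ± 16.6), PECAM1 (27.6 ± 5.61), CCR7 (1.49 ± 0.400) and CXCL8 (0.974 ± 0.0285), with no overlap between neighbours down to SELPLG (0.667 ± 0.235). SELPLG, S1PR1, CXCR3 and CCR6 followed, and each overlapped the next. In spleen CXCR4 (222 ± 9.36 TPM) and CD99 (217 ± 5.82) overlapped, followed by PECAM1 (8.31 ± 3.50), SELPLG (0.926 ± 0.0408) and CCR7 (0.430 ± 0.156), each apart from the next. S1PR1, CXCL8, CCR6 and CXCR3 came last, each overlapping the next. The S1PR1 level includes S1PR1-204, and the 2 coding transcripts with estimated counts gave at most 0.0684 TPM in any library.

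The members were also set among 6 lists of migration genes, described by counts with no test of the list. Over all 17075 genes the median log2 fold change was 0.04. Of these genes 1.63% were called higher and 0.387% lower, and with the block 7.48% and 3.37%. The counts of every list stand beside these shares. Of 23 chemokine receptors 11 were tested, 0 were called (1 higher with the block, CCR7), and the median was 0.33. CCR1, a receptor of inflammatory chemokines, named for the second highest mean CPM of the list, had 27.5 and 22.7 CPM in brain and 31.0 and 26.7 CPM in spleen (log2 fold change -0.20 ± 0.18, edgeR, adjusted p = 0.551). The receptors that were not tested reached at most 0.568 CPM, which is the value of CXCR3 in brain replicate 1.

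Of 44 chemokine ligands 7 were tested and 18 were at 0 in every library. Of the 7, 2 rose, 0 fell and 5 were not called. The block gave 4 that rose, and the median was 0.78. Of all tested genes 1.63% rose, and 7.48% with the block. CXCL8 and CCL25 passed the filter on low counts through the brain libraries alone, and 0 ligands passed through spleen alone, so the counts and the median lean toward brain. Beside CXCL8, CCL25, known as a thymus and gut chemokine, had 37 and 17 counts in brain and 1 and 2 counts in spleen (log2 fold change 3.76 ± 0.73, edgeR, adjusted p = 0.0484). The gene was not called without brain replicate 1 (adjusted p = 0.167) or with gene sums of the transcript files (adjusted p = 0.0519).

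Of 18 S1P receptor and metabolism genes 16 were tested, and 1 rose, 0 fell and 15 were not called, with a median of -0.04. The gene that rose was S1PR2, an S1P receptor that in mice restrains the migration of germinal centre B cells. It had 11.9 and 11.4 CPM in brain and 2.15 and 4.31 CPM in spleen, with no overlap (log2 fold change 1.86 ± 0.33, edgeR, adjusted p = 0.042). Under the stricter filter it was not called (adjusted p = 0.0585), and it was not tested with gene sums of the transcript files, where its GENCODE 44 transcript found no match. The 2 genes of the list that were not tested, S1PR1 and S1PR5, were at or under 0.0910 CPM in every library.

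Of 23 selectins, ligands and the enzymes that decorate them 20 were tested, of which 2 rose, 1 fell and 17 did not pass, with a median of 0.24. GCNT1, which builds the core 2 branch that P-selectin ligands carry, had 27.4 and 25.7 CPM in brain and 13.2 and 12.1 CPM in spleen (log2 fold change 1.07 ± 0.17, edgeR, adjusted p = 0.0258). GCNT1 was not called without brain replicate 1 (adjusted p = 0.0857) or after correction for GC content and transcript length (0.67, adjusted p = 0.0704). CD24, a glycoprotein that can bind P-selectin, had 11.8 and 7.49 CPM in brain and 3.22 and 2.85 CPM in spleen (1.67 ± 0.28, adjusted p = 0.033). CD34, a sialomucin of progenitors, had 135 and 104 CPM in brain and 337 and 280 CPM in spleen (-1.37 ± 0.18, adjusted p = 0.0126).

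Of 16 junction and transmigration molecules, PECAM1 and CD99 among them, 15 were tested and 0 were called, and with the block 6 were called higher and 1 lower. Over all tested genes the block called 7.48% higher and 3.37% lower. The list had a median of 0.58, with 11 of 15 values positive, against 9099 of 17075 over all tested genes. CD47, a ligand of SIRPA on phagocytes, named for the highest mean CPM of the list, had 209 and 202 CPM in brain and 170 and 173 CPM in spleen. Its log2 fold change was 0.26 ± 0.13 (edgeR, adjusted p = 0.303), and it was -0.23 after correction for GC content and transcript length.

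Of 31 signalling genes below these receptors all were tested, 1 rose, 0 fell and 30 did not pass, with a median of 0.00. The gene that rose was RHOH, a haematopoietic GTPase without catalytic activity, with 5.54 and 5.01 CPM in brain and 1.36 and 2.06 CPM in spleen (log2 fold change 1.63 ± 0.29, edgeR, adjusted p = 0.0377). RHOH was not called under the stricter filter (adjusted p = 0.0531) or with gene sums of the transcript files (adjusted p = 0.0739).

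**Figure D4:**
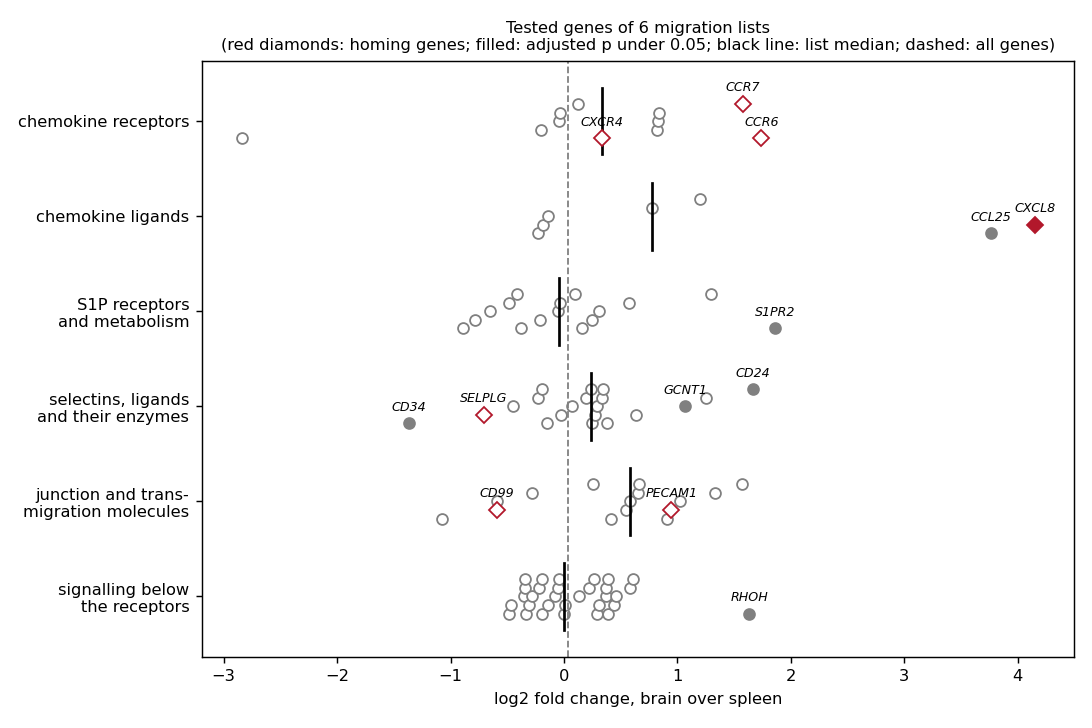
Log2 fold change of brain over spleen (horizontal axis) for each tested gene of 6 migration lists, with red diamonds for the homing genes, filled symbols at an adjusted p under 0.05, a black line at each list's median and a dashed line at the median of all tested genes. The filled symbols are CXCL8, CCL25, S1PR2, CD24, GCNT1 and RHOH on the side of brain and CD34 on the side of spleen.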

How the data were processed

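The deposited gene table holds raw counts per human gene, and the authors' transcript files hold estimated counts and TPM (a level per length, scaled to a fixed total) over human and mouse transcripts. Per the submitters' processing notes, the tools were bcl2fastq 1.8.4, cutadapt 1.5, kallisto 0.42.4 and DESeq2, with GRCh38 and GRCm38. Per the labels' protocols, libraries were stranded and made from messenger RNA. TPM is shared with mouse transcripts, so it moves with the mouse share. Of the 65217 genes, 56322 were found in GENCODE 44, and 6 deposited columns were not used: 1 of counts that matched no labelled sample, and the 5 of a table of regularised log values, which also holds a column of that name.

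Brain was set against spleen with edgeR 4.0.16 in R 4.3.3 (TMM factors, filterByExpr, robust quasi-likelihood fit, Benjamini-Hochberg over 17075 genes, adjusted p under 0.05). SE is the log2 fold change over the root of F. CPM divides counts by the TMM-scaled size of each library, over the genes tested. Ratio intervals are exact at 95% and, like floors of 3 counts, cover counting error only. Alternatives were RLE factors, DESeq2 1.42.0, other filters, each library left out, gene sums of transcripts, a GC and transcript length trend removed, and the replicate number as a block. The labels say that a number marks an occasion, so numbers pair the libraries. Deviations of same-numbered libraries correlated little (Pearson 0.0269, Spearman -0.0149 across 17075 genes). The edgeR fit without a block was tested on simulated data.

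The homing genes and lists were chosen with earlier results of these data known. From each list, the text names the genes called (up to 4) or, where none was called, the 2 with the highest mean CPM. The genes most like CXCL8 are the 3 with the smallest root mean square difference. A marker of the cell type check is not reported here.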

Additional observations from a re-analysis of the deposited data

How the results depend on the processing

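The replicate block called 1853 genes (1278 higher and 575 lower), and with the GC and length trend removed it called 1900 (980 and 920). The trend removal alone called 588 (401 and 187), DESeq2 924 (531 and 393), no filter 2123 (1269 and 854) and the stricter filter 210 (180 and 30). Leaving out 1 library at a time gave 404 to 6807 calls (297 to 3392 higher and 107 to 3415 lower). Of the homing genes, 2 were called higher with DESeq2, 4 without a filter (CXCR3 among them), 0 with the stricter filter, 3 with the block, 2 with the trend removed, 3 with both, and 1 to 3 with a library left out. There was 1 called lower with DESeq2, without a filter and with the block, and 0 to 1 with a library left out. CCR7 passed without a filter and with the block (1.58 in both), with the trend removed (1.65) and with both (1.66), and its log2 fold change was 1.44 to 1.71 with a library left out. PECAM1 passed with DESeq2 (0.91), without a filter (0.95), with the block (0.93) and with the block and trend removal (0.69), with 0.65 to 1.20 on leaving out a library. CD99 passed with DESeq2 (-0.63), without a filter (-0.59) and with the block (-0.60), with -0.75 to -0.44 on leaving out a library. CXCR4 ranged over 0.16 to 0.48 and the ratio of CXCR3 over 1.70 to 16.5, which has no value without spleen replicate 1. CD47 turned to -0.23 with the trend removed and -0.18 with the block and trend removal. With TPM over human transcripts alone, spleen levels were 237 (CXCR4), 0.988 (SELPLG) and 231 (CD99). The block changed no call of a homing gene other than CCR7, PECAM1 and CD99. With a library left out, the lone library of a site is assumed to vary like the other site. The causes of these changes were not tested, and depth limits CXCR3, S1PR1, CCR6 and the spleen level of CXCL8.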

Other observations

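The values below were chosen after they were seen. CXCR5, the receptor by which mature B cells enter follicles, had 1 and 174 counts in brain, against 318 and 680 counts in spleen. The spread within brain was wide and the log2 fold change of -2.84 did not pass (edgeR, adjusted p = 0.454). ICAM2 and ICAM3, ligands of leukocyte integrins, did not pass without the block. ICAM2 had 19.7 and 16.5 CPM in brain and 3.97 and 8.31 CPM in spleen (log2 fold change 1.57, edgeR, adjusted p = 0.0998, and 3.27e-08 with the replicate block). ICAM3 had 20.0 and 11.9 CPM in brain and 4.94 and 7.76 CPM in spleen (1.33, adjusted p = 0.109, and 2.96e-05 with the block). The block called 7.48% of all tested genes higher, so these calls stand against a high background.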
